A study of Mus musculus with 29 samples.

Results

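Mice of 2 groups with amyloid plaques were compared, 5xFAD Eif2A (n = 3) and 5xFAD TRAP (n = 4), which make up 7 of the 29 libraries of the series and were chosen by their group labels alone. All 7 mice were 6 months old and carried the 5xFAD transgenes, which express mutant human amyloid precursor protein and presenilin and give amyloid plaques. All carried Cx3cr1CreErt2/+, a tamoxifen-dependent Cre recombinase under the control of a gene active in microglia and related macrophages, and received 6 doses of 100 mg/kg tamoxifen. Cre switched on the Eef1a1 LSL eGFP-L10a/+ tag, a fluorescent ribosomal protein, so that ribosomes of these cells could be pulled down from cortex with their RNA (translating ribosome affinity purification, TRAP). 5xFAD Eif2A mice were in addition Eif2s1A/A with the transgene Tg(Eif2s1), and their tag is named in the sample labels but not in the description of the series. 5xFAD TRAP mice carried the tag alone and received VEGF at 1 µg/kg and ASV (asunaprevir, an inhibitor of a viral protease) at 5 mg/kg over 4 weeks, starting at 5 months. The allele with its transgene and the 2 agents therefore differ together between the groups, and cannot be told apart. 5xFAD Eif2A held 1 female and 2 males, all labelled batch 1, and 5xFAD TRAP held 1 female and 3 males, with replicates 1 and 2 in batch 1 and replicates 3 and 4 in batch 2.

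Eif2s1 encodes eIF2α, the subunit of translation initiation factor eIF2 on which the integrated stress response turns. Stress kinases phosphorylate eIF2α, general initiation falls, and the messenger of the transcription factor ATF4 is translated more, which raises genes of amino acid synthesis, amino acid transport and stress. The A allele replaces the phosphorylated serine with alanine, and in lines of this kind a floxed normal transgene is removed by Cre, so that cells with Cre are left with a form that cannot be phosphorylated. In plaque-bearing brain, microglia take up a disease-associated state marked by Trem2, Apoe, Cst7 and genes of lysosomes and lipid handling.

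Sequences can show where ATF4 could bind near targets of the integrated stress response, but not whether these changed in this comparison. Asns, which encodes asparagine synthetase, was 1 of the 2 targets with an unadjusted p under 0.05 and was not called (edgeR adjusted p = 0.129). The motif TGATGNAA, which C/EBP and ATF proteins bind together, was searched on both strands in the 250 bases before the RefSeq start (build GRCm38.p6). It was found in 8 of 28 integrated stress response targets that were tested and matched by symbol (28.6%), and in 1056 of 27025 genes in all (3.91%). The targets were listed as genes of this response, so their higher share is not a result of this comparison. A match is a description of letters and not a shown binding site. Asns is shown over the whole window (chr6:7693210-7693459, minus strand), and 3 other targets by the 48 bases around their match, with the match in capitals. They are Chac1 (chr2:119351029-119351076, plus strand), Pycr1 (chr11:120643824-120643871, minus strand) and Atf3 (chr1:191183416-191183463, minus strand), and all are written in the direction of the gene.
Asns: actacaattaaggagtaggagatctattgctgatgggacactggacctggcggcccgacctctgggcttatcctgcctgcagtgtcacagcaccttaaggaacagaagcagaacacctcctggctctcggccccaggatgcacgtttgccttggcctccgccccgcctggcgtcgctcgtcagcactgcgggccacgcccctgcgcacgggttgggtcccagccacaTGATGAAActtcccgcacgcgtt
Chac1: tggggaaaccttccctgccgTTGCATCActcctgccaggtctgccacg
Pycr1: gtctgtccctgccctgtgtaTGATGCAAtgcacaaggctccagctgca
Atf3: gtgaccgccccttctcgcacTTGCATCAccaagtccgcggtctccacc
In Asns the match begins 23 bases before the start, on the strand of the gene, as in Pycr1, whereas in Chac1 and Atf3 it lies on the other strand. Vldlr, the other target with an unadjusted p under 0.05, also has a match. It begins 200 bases before the start, on the other strand, and is not shown.

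Totals were 7.059, 7.337 and 7.629 M counts in 5xFAD Eif2A replicates 1 to 3, against 3.243, 2.052, 4.465 and 4.903 M in 5xFAD TRAP replicates 1 to 4, so that the 5xFAD TRAP batch 1 libraries were the shallowest. Homeostatic microglial genes took 7.11% to 7.81% of counts in 5xFAD Eif2A and 5.9% to 8.3% in 5xFAD TRAP, so both groups carried the RNA of the labelled cell type. The 11 neuron markers took 0.0614% to 0.0903% in 5xFAD Eif2A, against 0.431% and 0.252% in the batch 1 and 0.107% and 0.115% in the batch 2 libraries of 5xFAD TRAP. Over all 16074 genes tested, 7816 (48.6%) had no overlap between the batch 1 and the batch 2 libraries of 5xFAD TRAP, so main results are also given against each batch. Levels are CPM, read counts scaled to library totals and TMM factors, fold changes are log2 values of 5xFAD Eif2A over 5xFAD TRAP, and differences between samples of bulk RNA cannot tell fewer cells of a type from less RNA per cell. Nothing in the labels says that mice of a group came from different litters, so p-values measure the spread between libraries. In the main model that spread was estimated over all 29 libraries of the series, not over the 7 compared alone.

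Eif2s1 itself was at 210, 207 and 200 CPM in 5xFAD Eif2A replicates 1 to 3, against 147, 184, 177 and 139 CPM in 5xFAD TRAP replicates 1 to 4. The groups did not overlap, but the model that also holds batch and sex gave a log2 fold change of 0.07 ± 0.27 (SE, adjusted p = 0.969 in edgeR's quasi-likelihood test). Counts per gene do not show a change of 1 codon, so the level of Eif2s1 does not check the label. The kinase genes Eif2ak1, Eif2ak2, Eif2ak3 and Eif2ak4 had fold changes of -0.24, 0.94, -0.14 and -0.68, and 0 of the 18 genes for eIF2, its kinases and its phosphatase were called by edgeR (1 lower at an unadjusted p under 0.05) or DESeq2, with a median of -0.14.

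Against all genes, 27 of 16074 were called at an adjusted p under 0.05 (0.168%), 7 higher in 5xFAD Eif2A (0.0435%) and 20 lower (0.124%). An unadjusted p under 0.05 was reached by 1735 genes, some of which would reach it by chance. The number was 916 when batch was left out of the model. The median fold change of all genes was 0.03. The libraries of the groups did not overlap for 18 of the 27, against 2088 of all genes (13%). Of the 27, 20 differed by at least 0.5 on the log2 scale in the same direction against the batch 1 and against the batch 2 libraries of 5xFAD TRAP, as did 2155 of all genes (13.4%). On the other hand, 24 of the 27 had 5xFAD TRAP batches that did not overlap, against 48.6% of all genes, and in 23 the 5xFAD Eif2A mean lay nearer to batch 2, against 49.9% of all genes. Calls were fragile: Gm26561, Mctp1, Dgkb, Slitrk4, Pianp, Vmn2r12, Fbxo16 and Rpl17 held without at least 1 of the 7 libraries, and the other 19 were lost without any 1 of them.

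Mctp1 was the lower gene with the smallest p. Mctp1, which encodes a calcium-binding membrane protein of vesicles, was at 14.0, 11.2 and 19.8 CPM in 5xFAD Eif2A, against 68.4, 84.4, 56.7 and 53.5 CPM in 5xFAD TRAP. Every 5xFAD TRAP library stood above every 5xFAD Eif2A library in both batches, with means of 15.02 ± 4.37 and 65.8 ± 14.0 CPM (SD, n = 3 and 4). Its log2 fold change was -2.32 ± 0.36 (SE, adjusted p = 0.00624 in edgeR's quasi-likelihood test). The call was lost when 5xFAD Eif2A replicate 2 was left out (adjusted p = 0.123).

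Dgkb, which encodes a kinase that turns the lipid messenger diacylglycerol into phosphatidic acid, was at 7.84, 4.74 and 6.15 CPM in 5xFAD Eif2A, against 41.4, 44.9, 24.9 and 19.2 CPM in 5xFAD TRAP (log2 fold change -2.79 ± 0.47 SE, edgeR adjusted p = 0.0109). Slitrk4, a gene for a neuronal adhesion protein on chromosome X that falls outside the naming rule, was at 3.46, 1.58 and 1.66 CPM in 5xFAD Eif2A, against 12.7, 12.6, 9.84 and 11.7 CPM in 5xFAD TRAP (-2.71 ± 0.44 SE, edgeR adjusted p = 0.00844). Neither gene had overlapping groups, and both calls were lost without 5xFAD Eif2A replicate 2 or 3. Rictor, which encodes a defining subunit of the growth kinase complex mTORC2, was at 16.2, 19.8 and 14.8 CPM, against 45.7, 49.3, 31.9 and 34.1 CPM. Its fold change was -1.34 ± 0.26 (SE, edgeR adjusted p = 0.029), and the groups did not overlap. The call of Rictor was lost without any 1 of the 7 libraries, as were those of Prkca, Mib1, Mtmr7 and Gucy1b3. Prkca, outside the naming rule, which encodes the calcium-dependent kinase PKCα, fell by 1.26 on the log2 scale (SE 0.27, edgeR adjusted p = 0.0438), with 16.0 to 20.6 CPM in 5xFAD Eif2A and 23.1 to 51.1 CPM in 5xFAD TRAP, and differed by -1.27 against batch 1 and -0.52 against batch 2. Mib1, which encodes a ubiquitin ligase of Notch ligands, was at 73.9, 77.5 and 64.2 CPM in 5xFAD Eif2A, against 171, 147, 103 and 87.4 CPM in 5xFAD TRAP. The lipid phosphatase gene Mtmr7 was at 2.46 to 6.20 CPM, against 7.77 to 19.0 CPM, and Fbxo16, of an F-box protein, at 0 to 0.365 CPM, against 1.33 to 5.18 CPM. Neither gene had overlapping groups, nor had Mib1. Gucy1b3, a subunit of the nitric oxide receptor guanylyl cyclase, was at 12.2, 4.03 and 6.15 CPM, against 45.4, 35.1, 17.4 and 8.88 CPM, and overlapped with batch 2.

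Gad2 was the called member of the neuron marker list. Gad2, which encodes a glutamate decarboxylase that makes GABA, was at 17.0, 4.74 and 5.16 CPM in 5xFAD Eif2A, against 39.0, 46.6, 24.3 and 8.17 CPM in 5xFAD TRAP. The groups overlapped through 5xFAD Eif2A replicate 1 and 5xFAD TRAP replicate 4 (log2 fold change -2.66 ± 0.51 SE, edgeR adjusted p = 0.0297). Gprin1 and Gnao1, genes for neurite growth and a G protein abundant in neurons, and Cadps and Napb, outside the naming rule, for vesicle priming and membrane fusion, were also called lower, with fold changes of -2.61, -1.24, -1.99 and -1.61 in that order and no overlap. All 11 neuron markers had negative fold changes with a median of -0.99, and edgeR called Gad2 alone with all 29 libraries. DESeq2 and the model of the 4 groups without iPKR each called 5 lower, where they called 1.17% and 1.41% of all genes lower. Snap25, a membrane fusion protein of synapses, was at 728, 500 and 599 CPM in 5xFAD Eif2A, against 3790, 2110, 569 and 696 CPM in 5xFAD TRAP. Its difference thus lay in the 2 batch 1 libraries of 5xFAD TRAP, at -2.23 on the log2 scale, and was -0.07 against batch 2. The median difference of the neuron markers was -0.73 against batch 1 and -0.58 against batch 2. The part of the summed neuron share in the calls of Gad2, Cadps, Napb, Gprin1 and Gnao1 was not tested. Nor was it tested for the other lower calls, such as Slitrk4, Dgkb, Mtmr7 and Gucy1b3. The calls of Gad2, Cadps, Napb, Gprin1 and Gnao1 were each lost without any 1 of the 7 libraries. Astrocyte markers had a median of -0.65 and oligodendrocyte markers one of 0.30. edgeR called 0 of 9 and 0 of 12 of them (2 lower and 3 higher at an unadjusted p under 0.05). DESeq2 called 1 oligodendrocyte marker higher, against 0.541% of all genes.

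Among the higher calls, Pianp stood out in both batches. Pianp, which encodes a transmembrane ligand of the paired receptor PILRα, was at 126, 115 and 153 CPM in 5xFAD Eif2A, against 52.7, 69.0, 50 and 33.2 CPM in 5xFAD TRAP. The lowest 5xFAD Eif2A library stood well above the highest 5xFAD TRAP library (means 131 ± 19.8 and 51.2 ± 14.7 CPM, SD). Its log2 fold change was 1.44 ± 0.27 (SE, edgeR adjusted p = 0.029), and the call held without 5xFAD TRAP replicate 2 and was lost without any one of the other 6 libraries. Rpsa, a protein of the small ribosomal subunit, was at 224, 230 and 220 CPM in 5xFAD Eif2A, against 105, 112, 168 and 174 CPM in 5xFAD TRAP (1.20 ± 0.25 SE, edgeR adjusted p = 0.0431). Nhp2l1, a protein of the U4 snRNP, rose by 1.10 ± 0.23 (SE), with 76.5 to 81.7 CPM in 5xFAD Eif2A and 34.0 to 61.9 CPM in 5xFAD TRAP, and differed by 1.12 against batch 1 and 0.57 against batch 2. Rpl17, of the large ribosomal subunit, was called (2.23 ± 0.42 SE) with 76.2, 109 and 83.8 CPM in 5xFAD Eif2A, against 21.7, 12.1, 96.6 and 71.7 CPM in 5xFAD TRAP, so that it lay at the level of batch 2. Rpsa and Rpl17 have many near-identical pseudogene copies, and Gm6485, Gm5829 and Aldoart1, which were also called, are copies or relatives of other genes, so their counts are uncertain. Vmn2r12 rested on 1 library, with 0, 0.175 and 5.82 CPM in 5xFAD Eif2A, against 0, 0, 0 and 0.934 CPM in 5xFAD TRAP. The calls of Rpsa and Nhp2l1 were lost without any 1 of the 7 libraries.

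**Figure D1:**
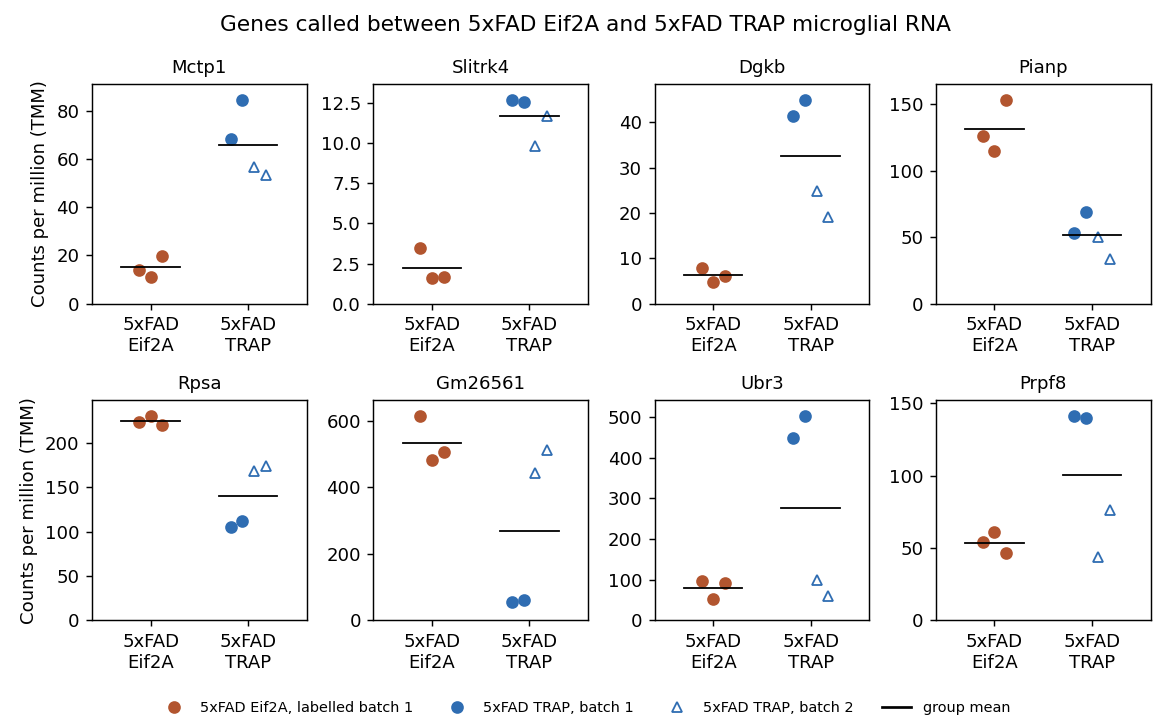
Level of 8 called genes in each library of 5xFAD Eif2A (left) and 5xFAD TRAP (right) in TMM-scaled CPM, with the group mean as a line and 5xFAD TRAP batch 2 libraries as open triangles. Mctp1, Slitrk4, Dgkb and Pianp separate the groups in both batches, whereas in Gm26561, Ubr3 and Prpf8 the 5xFAD Eif2A libraries lie with the batch 2 libraries of 5xFAD TRAP.

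The call with the smallest p followed the other pattern. Gm26561, an unnamed long noncoding RNA gene on chromosome 17 that falls outside the naming rule, was at 613, 481 and 505 CPM in 5xFAD Eif2A, against 53.4, 60.8, 442 and 512 CPM in 5xFAD TRAP (log2 fold change 2.97 ± 0.38 SE, edgeR adjusted p = 0.000405). The 5xFAD Eif2A libraries were thus at the level of the batch 2 libraries of 5xFAD TRAP although they are labelled batch 1. Outside these groups Gm26561 was at 51.3 to 80.1 CPM in the 4 Eif2A libraries, all of batch 1, at 42.3 to 67.3 CPM in the 4 batch 1 libraries of TRAP and at 509 CPM in its 1 batch 2 library. In the iPKR groups Gm26561 was at 13.4 to 25.1 CPM in batch 1 and 160 to 212 CPM in batch 2 for vehicle libraries. The values were 27.2 to 27.8 and 225 to 242 CPM in 5xFAD iPKR. In iPKR ASV they were 15.7 to 24.5 and 30.2 to 50.2 CPM. The part of batch in these levels was not tested. Ubr3, which encodes a ubiquitin ligase, was called lower with 96.5, 51.6 and 91.5 CPM in 5xFAD Eif2A, against 449, 502, 99 and 59.1 CPM in 5xFAD TRAP. Prpf8, a core splicing factor, was called lower with 53.8, 61.2 and 46.2 CPM, against 141, 140, 43.5 and 76.4 CPM. Of the 27 genes, edgeR called 2 in iPKR ASV against iPKR vehicle, against 0.423% of all genes. These were Ubr3 (3.11 ± 0.48 SE, edgeR adjusted p = 0.003995) and Prpf8 (2.15 ± 0.31 SE, edgeR adjusted p = 0.003282), both higher with ASV. Of the 2 groups compared here only 5xFAD TRAP received ASV, without the iPKR construct. The part of ASV in these 2 calls was not tested. Other genes did not place the 5xFAD Eif2A libraries with batch 2, such as mt-Cytb, a mitochondrially encoded subunit of respiratory complex III, at 30.6, 22.8 and 41.7 CPM in 5xFAD Eif2A, against 4.00, 8.77, 86.3 and 65.6 CPM in 5xFAD TRAP. When the 5xFAD Eif2A libraries were set to batch 2 in the model, an alternative chosen after seeing the data, 18 genes were called, 2 higher (0.0124%) and 16 lower (0.0995%), and Mctp1 (-1.94), Slitrk4 (-2.14), Plppr2 (-1.27) and Pxdn (-4.24), the last 3 outside the naming rule, were the only ones shared with the 27. Gm26561 was then at 0.33, Ubr3 at -0.04 and Prpf8 at 0.13, and none of these was called.

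Disease-associated microglial genes took a larger share of counts in 5xFAD Eif2A. Their summed share was 6.78%, 6.13% and 6.28% in 5xFAD Eif2A replicates 1 to 3, against 4.63%, 4.99%, 4.65% and 4.05% in 5xFAD TRAP replicates 1 to 4, and the groups did not overlap in either batch. Of the 31 genes, 29 had a positive fold change with a median of 0.76, and 18 had no overlap in the higher direction, against 1281 of all genes (7.97%). None of the 31 was called by edgeR with all 29 libraries, where 10 had an unadjusted p under 0.05, and DESeq2 called 1 higher, where it called 275 of all genes (1.71%), 87 higher (0.541%) and 188 lower (1.17%). The series also holds 3 groups with iPKR, a drug-controlled form of the eIF2α kinase PKR. In the model of the 4 groups without the iPKR construct, where 586 of 13800 genes were called (4.25%), 391 of them higher (2.83%) and 195 lower (1.41%), 7 of the 31 rose and 0 fell. These 7 were Trem2, Tyrobp, Ctsz, Cd63, Cd68, Fth1 and Timp2.

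Trem2, a lipid receptor of microglia on which the disease-associated state depends, was at 4140, 3340 and 3600 CPM in 5xFAD Eif2A, against 1790, 1980, 2270 and 1920 CPM in 5xFAD TRAP. Its fold change was 1.32 ± 0.51 (SE, edgeR adjusted p = 0.332) with all 29 libraries and 0.97 ± 0.16 (SE, edgeR adjusted p = 0.00224) in the model of the 4 groups without iPKR. Tyrobp, the adaptor through which Trem2 signals, was at 10100, 9250 and 9790 CPM, against 5590, 5030, 7690 and 6560 CPM. Apoe, the main lipid carrier gene of the brain, was at 12800, 9040 and 9440 CPM in 5xFAD Eif2A, against 6940, 6520, 6290 and 3910 CPM in 5xFAD TRAP (0.89 ± 0.37 SE, edgeR adjusted p = 0.374). Cst7, an inhibitor of cysteine proteases, was at 3610, 3450 and 3980 CPM, against 2360, 2410, 2090 and 1530 CPM. In each of these 4 genes every 5xFAD Eif2A library lay above every 5xFAD TRAP library.

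Members of the list differed in how they stood to the batches. Trem2 was higher by 0.96 against batch 1 and by 0.82 against batch 2, Cd63, a membrane protein of late endosomes, by 0.95 and 0.65, and Cd68, a glycoprotein of macrophage lysosomes, by 0.68 and 0.61. Gpnmb, a glycoprotein of lipid-laden macrophages, differed by -0.19 and 1.97, with 209, 112 and 59.2 CPM in 5xFAD Eif2A, against 127, 129, 76.7 and 10.0 CPM in 5xFAD TRAP. Clec7a, a receptor for fungal glucan used to mark plaque-associated microglia, differed by -0.69 and 0.11, with 435, 503 and 164 CPM, against 464, 609, 366 and 255 CPM, so its groups overlapped. The list's median difference was 0.50 against batch 1 and 0.70 against batch 2, where the same values over all genes were 0 and 0.02. With the 5xFAD Eif2A libraries set to batch 2 the median was 0.28 and Trem2 was at 0.30. Homeostatic genes had a median of 0.42 (0.30 against batch 1, 0.04 against batch 2) with 0 of 21 called by edgeR or DESeq2 (1 higher at an unadjusted p under 0.05), and one of -0.23 with the 5xFAD Eif2A libraries set to batch 2, and the growth factor receptor gene Csf1r was at 2270, 2380 and 2330 CPM in 5xFAD Eif2A, against 2060, 2590, 2300 and 2480 CPM in 5xFAD TRAP.

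**Figure D2:**
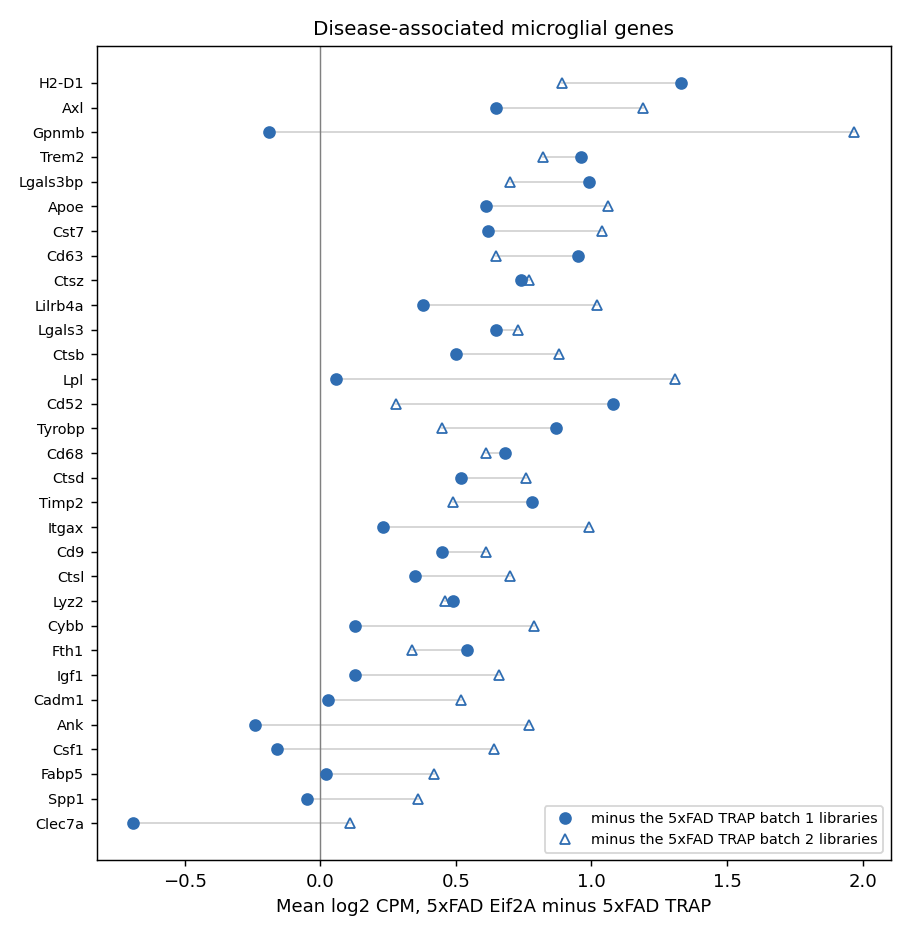
Difference in mean log2 CPM between 5xFAD Eif2A and the batch 1 (filled circles) or batch 2 (open triangles) libraries of 5xFAD TRAP for the 31 disease-associated microglial genes, sorted by the sum of both. Trem2, Cd63 and Cd68 have similar values against both batches, while Gpnmb and Lpl are near 0 or below against batch 1 and above 1 against batch 2.

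Lysosomal genes followed with smaller values. Their median was 0.43, 24 of 26 were positive and 15 did not overlap in the higher direction, against 7.97% of all genes. The median was 0.37 against batch 1 and 0.46 against batch 2. edgeR called 0 with all 29 libraries (7 higher at an unadjusted p under 0.05), as did DESeq2, and 3 rose and 0 fell in the model of the 4 groups without iPKR, against 2.83% and 1.41% of all genes. Those 3 were the protease genes Ctsh and Ctss and the cholesterol-binding protein gene Npc2, the last at 0.98 with all 29 libraries. Interferon response genes had a median of 0.88 (1.36 against batch 1, 0.29 against batch 2) with 0 of 26 called by edgeR or DESeq2 (4 higher at an unadjusted p under 0.05), and were unevenly spread in 5xFAD TRAP. They took 0.164%, 0.163% and 0.221% of counts in 5xFAD Eif2A, against 0.123%, 0.095%, 0.114% and 0.285% in 5xFAD TRAP, so that 5xFAD TRAP replicate 4 was the highest of all 7. With the batch 2 libraries of 5xFAD TRAP as the only ones of that group, the median was 0.01. H2-D1, a class I antigen presentation gene, was at 3380, 3340 and 3430 CPM, against 1500, 1210, 1350 and 2460 CPM (1.40 ± 0.44 SE, edgeR adjusted p = 0.228). In mice with the iPKR construct, where all received VEGF, interferon genes had a median of 0.81 in ASV against vehicle, with 2 of 26 called higher, and disease-associated genes one of 0.23, with 1 of 31 called higher, where 68 of all genes (0.423%) were called, 51 of them higher (0.317%). In those mice an effect of ASV through the iPKR kinase cannot be told apart from its other effects. The 5xFAD TRAP mice had no iPKR construct, so these values do not give the effect of ASV in them.

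**Figure D3:**
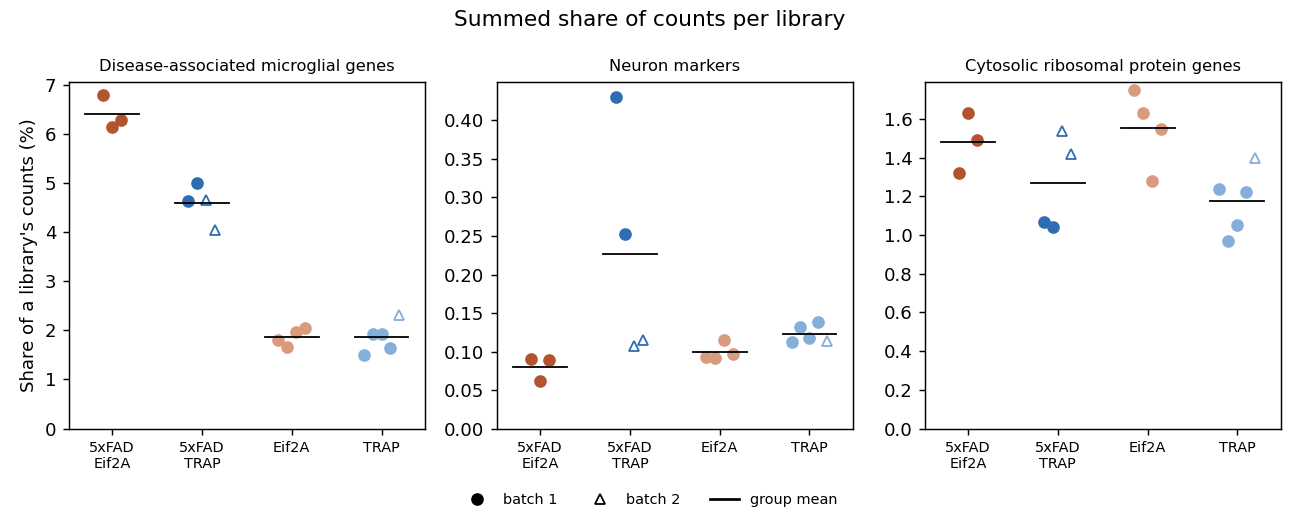
Share of each library's counts, in percent, taken by disease-associated microglial genes, neuron markers and cytosolic ribosomal protein genes in 5xFAD Eif2A, 5xFAD TRAP, Eif2A and TRAP, with group means as lines. Disease-associated genes take 6.13% or more in 5xFAD Eif2A and 4.99% or less in 5xFAD TRAP, and the neuron share is highest in the 2 batch 1 libraries of 5xFAD TRAP.

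edgeR called no target of the integrated stress response with all 29 libraries (2 had an unadjusted p under 0.05). DESeq2 called 2 of 30 lower, Asns and Vldlr, against 1.17% of all genes. Asns and 5 others were lower in every 5xFAD Eif2A library. The targets' median was -0.03, with 13 of 30 positive, and the share of counts was 0.176% to 0.177% in 5xFAD Eif2A and 0.171% to 0.19% in 5xFAD TRAP. Asns was at 14.2, 7.02 and 8.32 CPM in 5xFAD Eif2A, against 42.7, 37.3, 26.9 and 18.9 CPM in 5xFAD TRAP, and these values did not overlap. Its fold change was -2.15 ± 0.58 (SE, edgeR adjusted p = 0.129) with all 29 libraries. In the model of the 4 groups without iPKR it was -1.72 ± 0.44 (SE, edgeR adjusted p = 0.0317). Asns was the only target called there, where 1.41% of all genes were called lower. Of the targets, 6 did not overlap in the lower direction and 1 in the higher (5.02% and 7.97% of all genes).

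Vldlr, a lipoprotein receptor gene, was at 4.19, 5.61 and 2.99 CPM in 5xFAD Eif2A, against 18.4, 12.6, 11.1 and 7.71 CPM in 5xFAD TRAP (-1.67 ± 0.45 SE, edgeR adjusted p = 0.129). Trib3, a pseudokinase that ATF4 induces, was at 1.64, 4.74 and 0.665 CPM, against 6.34, 4.93, 11.1 and 10.7 CPM. Chac1, which breaks down glutathione and carries the motif shown, was at 1.46, 1.40 and 1.66 CPM, against 2.00, 2.74, 2.85 and 4.20 CPM, a level near the lower limit of these libraries. Pycr1, of proline synthesis, was at 0.365, 2.63 and 2.16 CPM, against 3.34, 4.93, 3.37 and 3.97 CPM. These 4 genes thus had every 5xFAD Eif2A library below every 5xFAD TRAP library without passing edgeR's test.

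The transcription factors of the pathway and other targets went the other way or overlapped. Atf4 was at 195, 219 and 157 CPM in 5xFAD Eif2A, against 161, 153, 148 and 163 CPM in 5xFAD TRAP (0.36 ± 0.31 SE). Ddit3, which encodes the stress factor CHOP, was at 33.6, 41.4 and 45.7 CPM, against 26.7, 17.5, 51.0 and 45.8 CPM. Atf3, another target with the motif, was at 179, 110 and 105 CPM, against 99.8, 121, 80.3 and 60.0 CPM (0.76 ± 0.63 SE). Psat1, of serine synthesis, was at 415, 366 and 270 CPM, against 290, 402, 181 and 147 CPM (0.05 ± 0.34 SE). Of the aminoacyl-tRNA synthetases, 1 of 19 was positive, with a median of -0.39 that became 0.40 with the 5xFAD Eif2A libraries set to batch 2. Their median difference was -0.21 against batch 1 and 0.41 against batch 2. edgeR and DESeq2 called 0 of 19 (1 lower at an unadjusted p under 0.05 in edgeR), and the groups overlapped for every one of them.

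**Figure D4:**
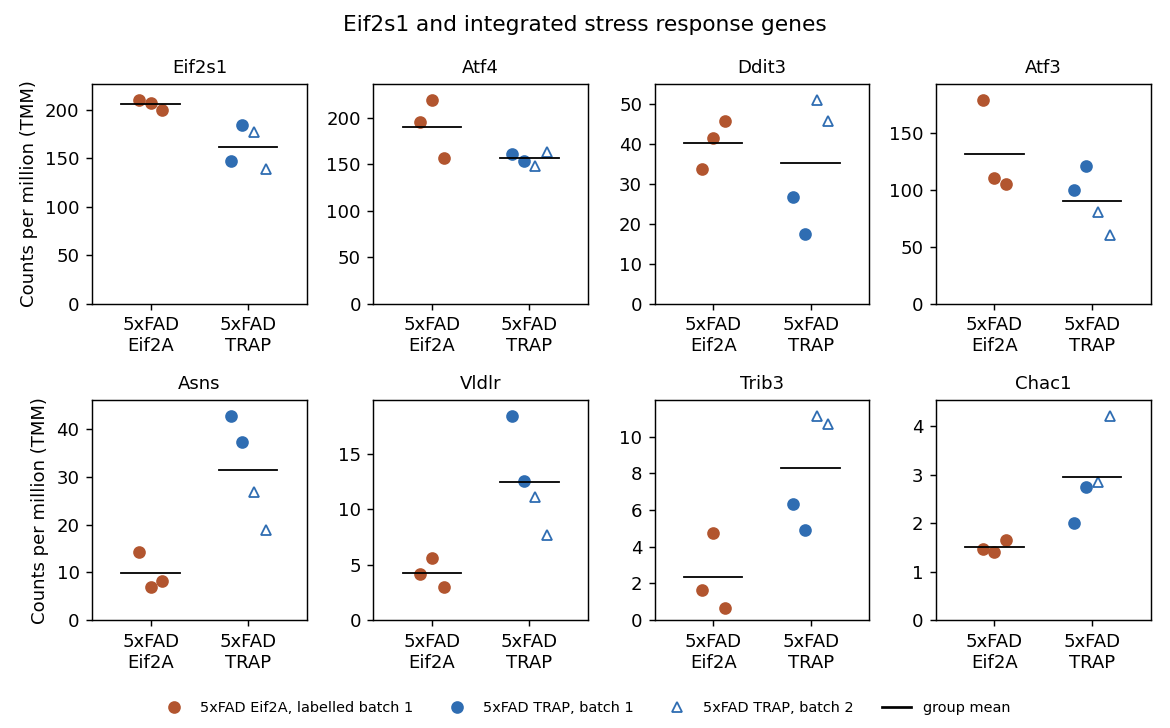
Level of Eif2s1 and 7 genes of the integrated stress response in each library of 5xFAD Eif2A (left) and 5xFAD TRAP (right) in TMM-scaled CPM, with group means as lines and batch 2 libraries as open triangles. Asns, Vldlr, Trib3 and Chac1 are lower in every 5xFAD Eif2A library, while Atf4, Ddit3 and Atf3 overlap between the groups.

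ER chaperones, which fold secreted proteins under a separate branch of the stress response, had a median of 0.34. edgeR called 0 of 22 over all 29 libraries, and DESeq2 called 1 higher, against 0.541% of all genes. In the model of the 4 groups without iPKR 5 rose and 0 fell, against 2.83% and 1.41% of all genes. Among the 5 was Hspa5, the main chaperone of the ER (0.80, edgeR adjusted p = 0.0105). Hspa5 was at 561, 729 and 716 CPM in 5xFAD Eif2A, against 332, 389, 550 and 518 CPM in 5xFAD TRAP. Sdf2l1, a partner of Hspa5, was at 503, 474 and 518 CPM, against 230, 215, 369 and 381 CPM (0.94, edgeR adjusted p = 0.00584). Their mean differences were above 0 against either batch of 5xFAD TRAP, but the edgeR model with the batch 2 libraries as the only ones of 5xFAD TRAP gave -0.24 ± 0.60 (SE) for Hspa5 and 1.18 ± 0.56 (SE) for Sdf2l1. The list's median was 0.40 against batch 1 and 0.27 against batch 2.

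Genes of the ribosome and of the respiratory chain had positive fold changes that depended on batch. All 77 cytosolic ribosomal protein genes were positive with a median of 0.91, and Rpsa and Rpl17 were called. The median difference was 0.79 against the batch 1 and 0.15 against the batch 2 libraries of 5xFAD TRAP, and the list's median was 0.02 with the 5xFAD Eif2A libraries set to batch 2. In the model of the 4 groups without iPKR, 45 rose and 0 fell, against 2.83% and 1.41% of all genes. Nuclear-encoded genes of oxidative phosphorylation had a median of 0.61, with 68 of 81 positive. edgeR called 0 (33 higher and 1 lower at an unadjusted p under 0.05) and DESeq2 called 5 higher, against 0.541% of all genes. In the model of the 4 groups 34 of 79 rose and 1 fell, against the same 2.83% and 1.41%. The list had differences of 0.61 against batch 1 and 0.11 against batch 2. Mitochondrially encoded genes had differences of 1.16 against batch 1 and -1.28 against batch 2, so that 5xFAD Eif2A lay between the batches.

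**Figure D5:**
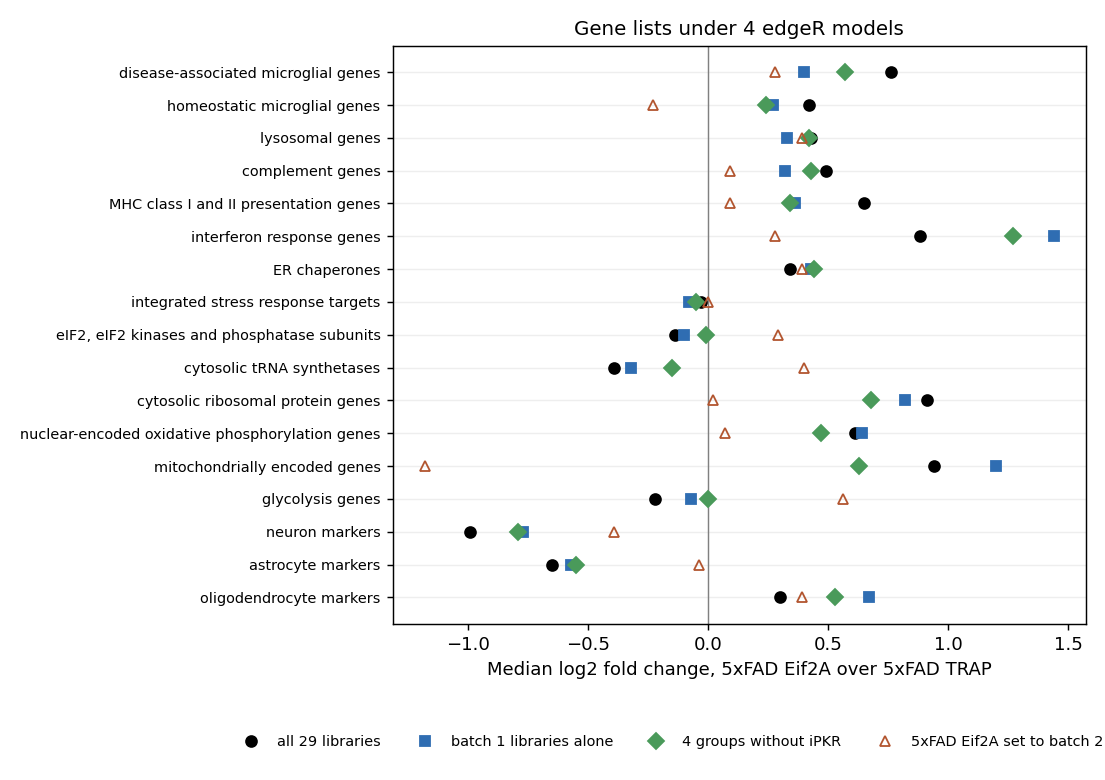
Median log2 fold change of 17 gene lists, 5xFAD Eif2A over 5xFAD TRAP, under 4 edgeR models (symbols). Disease-associated, lysosomal, ER chaperone, interferon response, complement, MHC, ribosomal protein, oxidative phosphorylation and oligodendrocyte genes are above 0 in all 4. Neuron and astrocyte markers are below 0 in all 4. From the fit of all 29 libraries to that with 5xFAD Eif2A set to batch 2, some medians change sign. These include glycolysis, tRNA synthetase, mitochondrially encoded, homeostatic and eIF2 genes. Ribosomal protein, oxidative phosphorylation, astrocyte, complement and MHC genes are then at 0.02, 0.07, -0.04, 0.09 and 0.09.

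Glycolysis genes had fold changes of both signs, with 8 of 20 positive. Their median was -0.22, with differences of 0.07 against batch 1 and 0.42 against batch 2. Of the 20, 5 did not overlap in the higher and 2 in the lower direction, against 7.97% and 5.02% of all genes. With the 5xFAD Eif2A libraries set to batch 2 the median was 0.56. In the model of the 4 groups without iPKR, 4 of 20 fell and 0 rose, against 1.41% and 2.83% of all genes, namely Hk1, Pfkm, Pfkp and Aldoc, of which Aldoc is also an astrocyte marker. Pfkm, a phosphofructokinase of muscle and neurons, was at 29.5, 18.6 and 26.3 CPM in 5xFAD Eif2A, against 85.8, 70.1, 30.0 and 30.1 CPM in 5xFAD TRAP, a difference of -1.65 against batch 1 and -0.30 against batch 2.

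The same allele was set against the tag without plaques, in 6-month-old Eif2A and TRAP mice that had the same genotypes without 5xFAD and received tamoxifen but no VEGF or ASV. In Eif2A (n = 4) against TRAP (n = 5) edgeR called 0 of 16074 genes (0%), with 912 at an unadjusted p under 0.05, and DESeq2 called 41. Of the 27 genes called with plaques, 19 had the same sign here, as did 10312 of all 16074 genes. Pianp was at 40.9, 25.9, 44.5 and 46.1 CPM in Eif2A, against 16.6, 23.3, 22.1, 20.8 and 21.3 CPM in TRAP (0.95 ± 0.24 SE, edgeR adjusted p = 0.575), so that the groups did not overlap here either. Mctp1 was at 75.3, 38.3, 14.2 and 46.9 CPM, against 69.8, 44.9, 50.6, 70.8 and 57.1 CPM (-0.62 ± 0.30 SE), and these values overlapped. Dgkb, at 27.9 to 41.6 CPM in Eif2A and 10.8 to 29.6 CPM in TRAP, had a fold change of the opposite sign (0.36 ± 0.35 SE).

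When the difference between the effects with and without plaques was tested itself, edgeR called 1 gene (0.00622%), Gm26561 (3.08 ± 0.48 SE, adjusted p = 0.0104), with 686 at an unadjusted p under 0.05, and DESeq2 called 83. Dgkb was next to the threshold (-3.15 ± 0.57 SE, edgeR adjusted p = 0.0556). Disease-associated genes had a median of 0.11 without plaques, and their difference had a median of 0.67 with 0 of 31 called. Ribosomal protein genes had a median of 0.70 without plaques, against 0.91 with them, and a difference of 0.20 with 0 of 77 called. Asns had fold changes of -0.47 without plaques and -2.15 with them, and its difference of -1.68 was not called.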

How the data were processed

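Microglial TRAP RNA from cortex was sequenced in 29 libraries of 7 groups. Per the labels' protocols, polyadenylated RNA was made into libraries with a SMART-Seq kit. Per the submitters' processing notes, which give no order, the build was mm10 and the tools were featureCounts 2.0.3, HISAT2 2.2.1 and Trim Galore. The annotation, the use of strand and the treatment of reads with several matches are not given in the sources used here, so overlapping and antisense genes cannot be told apart. The authors deposited raw counts for 22327 genes and a table of RPKM, which was used only in an alternative on the log2(RPKM + 0.1) scale.

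Counts were fitted with edgeR 4.0.16 (R 4.3.3, limma 3.58.1) over all 29 libraries, with TMM factors, terms for group, batch and labelled sex, and robust quasi-likelihood tests on 20 residual degrees of freedom. Genes were kept with a minimum count of 10 and a minimum total of 15 (16074 genes). Calls were made at a Benjamini-Hochberg adjusted p under 0.05. Differences against each batch are of mean log2(CPM + 0.5) and carry no test. Labelled sex went against Y-linked counts in 8 of 29 libraries and in 0 of the 7 compared. No pair of replicates agreed within sampling noise. Gene positions are from GENCODE M21 and promoters from RefSeq.

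The rule for named genes took up to 12 called genes per direction by smallest p, with size limits (0.5 for the absolute log2 fold change, 1 for mean log2 CPM), leaving out unnamed models, pseudogenes and sex chromosomes, plus up to 4 called members of each gene list, or the 2 with the smallest p, and the targeted genes. Genes named beside these, members of the lists included, were chosen after their values were seen. The members and lists were chosen with earlier results of these data known. Scripts were tested on simulated data. Alternatives included other normalizations, filters, covariates and sets of libraries, DESeq2 1.42.0, limma-voom and leaving out each library. Those that split 5xFAD TRAP by batch, kept the 2 groups in batch 1 alone or set 5xFAD Eif2A to batch 2 were added after seeing the data.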

Additional observations from a re-analysis of the deposited data

Results flagged for a closer look

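In the 5xFAD TRAP group of 4, the gap between 1 library and the rest was large against the group's range for 8 of the 99 genes and 36 list shares checked, where chance gives about 1 in 20. Replicate 2 stood apart for Ccnd1, a cyclin gene, at 55.9 CPM. It did so too for oligodendrocyte markers, at 0.0533% of counts. Replicate 3 stood apart for the platelet and border macrophage gene Pf4 at 49.2 CPM and for immediate-early genes at 0.115% of counts. Replicate 4 stood apart for the interferon-induced gene Ifitm3 at 377 CPM, for interferon response genes at 0.285% of counts, for Plac8 at 4.20 CPM and for Vmn2r12 at 0.934 CPM. Groups of 3 were not examined in this way.

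The noncoding gene Gm26561 had a different fold change of Eif2A over tag-only mice with and without 5xFAD, by 3.08 on the log2 scale (SE 0.48, adjusted p = 0.0104 in edgeR's quasi-likelihood test). Among these groups 5xFAD TRAP alone received VEGF and ASV, so the allele and the agents cannot be told apart in this difference. The 5xFAD Eif2A libraries are labelled batch 1 and had 481 to 613 CPM, against 53.4 to 60.8 CPM in the batch 1 and 442 to 512 CPM in the batch 2 libraries of 5xFAD TRAP. The part of batch in this difference was not tested.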

How the results depend on the processing

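The count of 27 genes depended on the model. It was 15 with RLE factors (6 higher and 9 lower, 40% higher against 25.9%), 12 with no low-count filter, 14 without sex, 0 without batch (916 at an unadjusted p under 0.05), 8 with sex from Y-linked counts, 6 with limma-voom, 15 with limma on RPKM and 275 with DESeq2 (26 shared). With fewer groups in the fit it was 586 (4 groups without iPKR) and 1095 (the 2 groups alone), and 858 for the 2 groups in batch 1 (22 shared). Against the batch 2 libraries of 5xFAD TRAP alone it was 0 (1637 at an unadjusted p under 0.05), and against the batch 1 libraries alone 2. Leaving out 1 library gave 2 to 8 calls, with 2 without 5xFAD Eif2A replicate 2 or 3, 8 without its replicate 1, 5 without 5xFAD TRAP replicate 1 or 2 and 4 without its replicate 3 or 4. It was within 1.5 times of 27 with upper-quartile factors (22, all shared), a stricter filter (32, 26 shared), batch 1 alone (24, 11 shared), males alone (25, 9 shared, 4% higher) and 5xFAD Eif2A set to batch 2 (18, 4 shared, 11.1% higher), so similar counts did not mean the same genes. In that last fit Prpf8 changed sign, at 0.13. The cause of these shifts was not tested.

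Replicate numbers did not pair samples (correlations of same-numbered libraries 0.07, 0.04 and 0.07), and with the replicate block 4 genes were called. In Eif2A against TRAP the count of 0 became 272 in the fit of 4 groups and 41 with DESeq2. The count of 1 for the difference became 3 without sex, 0 without batch, 2 in batch 1 alone, 42 in the fit of 4 groups and 83 with DESeq2. Depth limits 5xFAD TRAP replicate 2 most, at 2.052 M counts.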
